A study of Mus musculus with 12 samples.

Results

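The 10 genes described here encode the machinery with which phagocytes recognise dying cells and antibody-coated particles: the TAM receptors Axl, Mertk and Tyro3, their ligands Gas6 and Pros1, the restraining pair Sirpa and Cd47, and the kinase Syk with the adaptors Tyrobp and Fcer1g. They were selected by gene symbol from the 24062 genes of the count files, with the genotype results of both tissues already known. Their genotype differences are therefore given as a description of where these genes stand in the fit of all genes, and nothing is read from how many of them passed its threshold. RNA was sequenced from liver and gastrocnemius, a calf muscle, of 6 female C57BL/6N mice on chow. The groups were liver from mice homozygous for the R135W allele of Mars2, the mitochondrial methionyl-tRNA synthetase (R135W, animals 5, 7 and 12, aged 9.0, 7.4 and 8.6 weeks), liver from wild-type mice (WT, animals 6, 8 and 9, aged 9.0, 9.0 and 7.4 weeks), and gastrocnemius from the same 3 R135W and the same 3 WT mice. The labels name no cell type to which the allele is limited.

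Poly(A) RNA was read in pairs, and each file gives whole fragment counts per gene. The 12 libraries held 20751583 to 30460237 counts. Whole tissue was sequenced, so more cells of a type and more RNA per cell cannot be told apart in any value below. Hepatocyte and muscle fibre markers matched the labels of all 12 libraries: the 10 hepatocyte markers summed to 91820 to 98550 CPM (counts scaled to a common library total, with TMM factors) in R135W livers and 112300 to 112600 CPM in WT livers, and the 10 muscle fibre markers to at most 1.41 CPM in any liver. In gastrocnemius the muscle fibre markers summed to 143100 to 178400 CPM in R135W and 134700 to 155600 CPM in WT, and the hepatocyte markers to at most 48.8 CPM in R135W (animal 12) and 9.22 CPM in WT. Mars2 RNA did not differ between genotypes past an adjusted p of 0.05 in either tissue (log2 fold change 0.08 ± 0.25, SE, in liver and -0.31 ± 0.11, SE, in gastrocnemius). The allele is a missense change, so this RNA level does not check the genotype.

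As background, AXL, MERTK and TYRO3 are receptor tyrosine kinases that do not bind dying cells themselves. GAS6 bridges all of them, and protein S (Pros1) only some of them, to phosphatidylserine, the lipid that dying cells expose. Both ligands bind it through a domain that vitamin K dependent carboxylation makes able to do so. The receptors then drive engulfment and dampen inflammatory signalling. SIRPA, on macrophages and neurons, carries immunoreceptor tyrosine-based inhibitory motifs and is engaged by CD47, a surface protein of most cells that restrains their uptake. TYROBP (DAP12) and FCER1G (the Fc receptor gamma chain) are small adaptors that pair with activating receptors, and their phosphorylated motifs recruit the kinase SYK. In liver the resident macrophages are Kupffer cells, which clear dying cells and antibody-coated particles from the blood.

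The RefSeq promoter table, on GRCm38.p6, which has the coordinates of the files' mm10, held 10 windows for 8 of the 10 genes. Each window runs from 250 bases before a transcription start to 50 after it. Promoters of Axl and Mertk are shown because these paralogous receptors differ in their values below, and Fcer1g and Syk because they serve one signalling module. Syk also has a window at an upstream start, which is not printed. Capitals mark a match to GAGGAA on either strand, the core letters of many PU.1-type ETS factor sites.
Axl, chr7:25788684-25788983, minus strand: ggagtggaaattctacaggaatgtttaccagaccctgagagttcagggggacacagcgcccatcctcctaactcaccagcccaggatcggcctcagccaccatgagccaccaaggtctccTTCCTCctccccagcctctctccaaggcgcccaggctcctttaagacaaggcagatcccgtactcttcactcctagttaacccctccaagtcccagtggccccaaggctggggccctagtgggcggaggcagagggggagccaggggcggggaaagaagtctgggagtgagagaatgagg
Mertk, chr2:128698665-128698964, plus strand: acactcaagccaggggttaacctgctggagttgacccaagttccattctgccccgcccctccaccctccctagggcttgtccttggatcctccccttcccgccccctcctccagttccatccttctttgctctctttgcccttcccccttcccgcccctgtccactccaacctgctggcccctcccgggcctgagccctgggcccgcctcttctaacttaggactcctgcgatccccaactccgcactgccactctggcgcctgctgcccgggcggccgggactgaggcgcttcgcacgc
Fcer1g, chr1:171234300-171234599, minus strand: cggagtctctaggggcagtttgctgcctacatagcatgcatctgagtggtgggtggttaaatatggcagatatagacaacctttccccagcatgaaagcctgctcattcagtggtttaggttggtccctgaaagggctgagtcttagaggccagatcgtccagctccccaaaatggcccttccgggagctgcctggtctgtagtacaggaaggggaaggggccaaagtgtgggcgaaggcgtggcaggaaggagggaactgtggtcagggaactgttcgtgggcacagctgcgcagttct
Syk downstream start, chr13:52596632-52596931, plus strand: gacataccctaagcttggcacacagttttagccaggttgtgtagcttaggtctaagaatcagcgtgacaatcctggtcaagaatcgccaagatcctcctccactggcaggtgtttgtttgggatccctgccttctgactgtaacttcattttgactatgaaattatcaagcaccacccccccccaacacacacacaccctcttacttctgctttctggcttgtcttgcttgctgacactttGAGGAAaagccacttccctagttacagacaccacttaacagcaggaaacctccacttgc
Of the 10 windows, those of Axl and of the downstream start of Syk each held 1 such match. They lay at base 121, as its reverse complement TTCCTC, and at base 242. The other windows, that of the upstream Syk start among them, held none, and 28.3% of all 32851 promoter windows of 300 bases hold it. A match to TTCNNNGAA, the core of STAT factor sites, lay in the Pros1 window and in 8.3% of all windows. No window of the 8 genes held GAAANNGAA (interferon response element core, 8.56% of all windows) or TGANTCA (AP-1 site, 7.81%), all searched on both strands. These are letters in a window and say nothing of binding.

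Axl RNA was higher in every R135W liver than in any WT liver, while Mertk RNA differed little and Tyro3 was close to absent from liver. Axl (chromosome 7, 25756500 to 25788733, mm10) stood at 48.5, 53.3 and 52.6 CPM in the R135W livers 5, 7 and 12, against 24.5, 20.4 and 26.7 CPM in the WT livers 6, 8 and 9. The groups did not overlap, beside 23.7% of all 13935 genes tested in liver whose groups do not. The log2 fold change was 1.10 ± 0.13 (SE), or 2.14-fold, with an adjusted p of 0.00693 in edgeR's quasi-likelihood test over those 13935 genes. Mertk (chromosome 2, 128698997 to 128802188), a receptor through which resident macrophages take up dying cells, had 27.3, 26.9 and 30.5 CPM in R135W livers and 30.8, 30.5 and 31.8 CPM in WT livers. Its log2 fold change of -0.14 ± 0.10 (SE) did not pass the test (adjusted p = 0.536 in edgeR), and the 95% interval runs between -0.38 and 0.10. Tyro3 (chromosome 2, 119797740 to 119818103), best known from the nervous system, had 5 to 14 counts per R135W liver library and 6 to 7 per WT liver library, below the count filter, so it was not tested there.

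The make-up of the receptor RNA therefore differed between the livers. Per kilobase of exon, which makes genes comparable, Axl gave 55.8 ± 1.86% of the summed TAM receptor level in R135W livers and 34.7 ± 2.66% in WT livers (SD, n = 3 each). Mertk gave 43.8 ± 1.72% in R135W livers and 64.8 ± 2.62% in WT livers. The ratio of Axl to Mertk per kilobase was 1.28 ± 0.094 in R135W livers and 0.538 ± 0.062 in WT livers (SD, n = 3 each), and the libraries ranged over 1.21 to 1.38 in R135W and 0.469 to 0.588 in WT. These shares follow from the same counts as the fold changes and are a description, not further support. The summed receptor level per kilobase was 18.1 ± 0.84 CPM per kb in R135W livers and 13.5 ± 0.80 CPM per kb in WT livers.

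**Figure D1:**
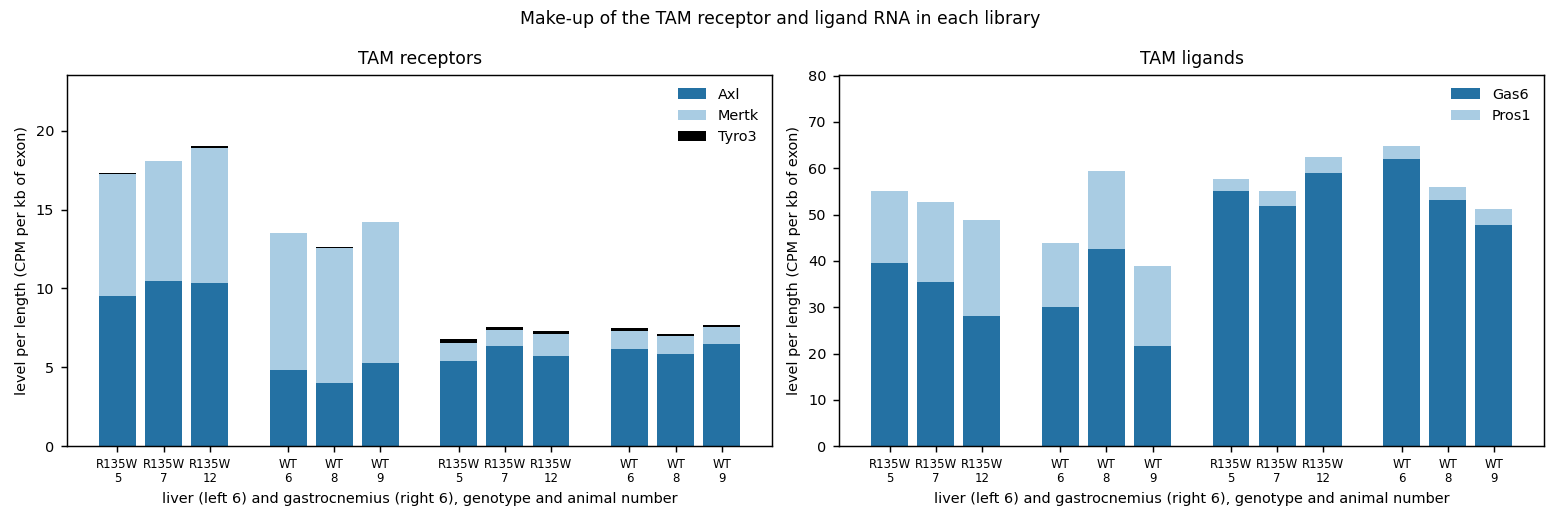
The stacked bars give the level per length (CPM per kb of exon) of the TAM receptors (left) and their ligands (right) in each library, by tissue, genotype and animal number. Axl takes the larger part of the receptor RNA in the 3 R135W livers and Mertk in the 3 WT livers, while in gastrocnemius Axl leads in all 6 libraries.

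In gastrocnemius the TAM receptors gave a different picture. Axl had 27.4, 32.2 and 29.2 CPM in R135W muscles 5, 7 and 12, against 31.3, 29.6 and 32.9 CPM in WT muscles 6, 8 and 9, and these values overlap. Mertk had 4.10, 3.67 and 4.78 CPM in R135W muscles and 4.15, 4.11 and 3.95 CPM in WT muscles. Axl took 80.6 ± 2.69% of the receptor level per kilobase in R135W muscles and 82.7 ± 1.25% in WT muscles (SD, n = 3 each).

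Tyro3 was the 1 member whose gastrocnemius values separated upwards. It had 26, 26 and 28 counts (1.10, 0.983 and 1.07 CPM) in R135W muscles, against 22, 16 and 14 counts (0.913, 0.577 and 0.537 CPM) in WT muscles. All R135W values lay above all WT values, but the log2 fold change of 0.63 ± 0.26 (SE) did not pass the test over all 13826 genes (unadjusted p = 0.0368, adjusted p = 0.385 in edgeR), and 16.2% of those genes have groups that do not overlap in gastrocnemius. At counts this low the difference is a few reads per library.

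Neither TAM ligand differed between the genotypes beyond the spread of the libraries. Gas6 (chromosome 8, 13465374 to 13494535), the ligand of all 3 receptors, had 103, 92.2 and 72.7 CPM in R135W livers and 78.0, 110 and 56.4 CPM in WT livers. Animal 8 held the highest liver value and animal 9 the lowest, both WT, so the R135W livers lie inside the WT range. The log2 fold change was 0.13 ± 0.23 (SE, 95% interval -0.40 to 0.65, adjusted p = 0.828 in edgeR). Pros1 (chromosome 16, 62854334 to 62929340), which encodes protein S, an anticoagulant made largely by hepatocytes, had 50.8, 56.2 and 68.4 CPM in R135W livers and 44.9, 55.2 and 56.3 CPM in WT livers, a log2 fold change of 0.16 ± 0.14 (SE, 95% interval -0.16 to 0.48). Both ligands overlapped between genotypes in gastrocnemius, with 143 ± 9.25 CPM of Gas6 in R135W muscles and 141 ± 18.6 CPM in WT muscles (SD, n = 3 each), and 10.3 ± 1.35 CPM of Pros1 in R135W muscles and 9.87 ± 1.15 CPM in WT muscles. Their ratio per kilobase was also close between genotypes, at 1.99 ± 0.61 in R135W livers and 1.99 ± 0.65 in WT livers, and at 17.7 ± 2.34 in R135W muscles and 18.3 ± 4.10 in WT muscles.

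Sirpa RNA was higher in R135W livers, and that of its ligand Cd47 was not called. Sirpa (chromosome 2, 129592839 to 129632228) had 38.0, 35.3 and 36.0 CPM in R135W livers 5, 7 and 12, against 16.4, 14.5 and 16.8 CPM in WT livers 6, 8 and 9. Every R135W value exceeded every WT value, beside 23.7% of all liver genes whose groups do not overlap. The log2 fold change was 1.19 ± 0.11 (SE), and an adjusted p of 0.00395 in edgeR placed Sirpa at rank 11 by p among all genes tested in liver. Cd47 (chromosome 16, 49855654 to 49911683) had 36.3, 49.4 and 53.3 CPM in R135W livers and 34.0, 40.3 and 36.9 CPM in WT livers. The R135W liver 5 lay within the WT range, and its difference of 0.32 ± 0.15 (SE) on the log2 scale had a 95% interval of -0.03 to 0.67 (adjusted p = 0.331 in edgeR). The ratio of Sirpa to Cd47 per kilobase was 0.364 ± 0.092 in R135W livers and 0.194 ± 0.029 in WT livers (SD, n = 3 each). In gastrocnemius the pair kept to 7.14 ± 0.23 CPM of Sirpa in R135W muscles and 6.90 ± 0.44 CPM in WT muscles, and to 13.1 ± 0.55 CPM of Cd47 in R135W muscles and 13.1 ± 0.69 CPM in WT muscles.

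Syk and both adaptors were higher in the R135W livers by a similar factor. Syk (chromosome 13, 52583437 to 52648792) had 16.5, 14.5 and 15.1 CPM in R135W livers and 7.69, 6.86 and 8.42 CPM in WT livers, a log2 fold change of 0.997 ± 0.14 (SE). Tyrobp (chromosome 7, 30413788 to 30417579) had 20.2, 19.4 and 19.4 CPM in R135W livers and 9.78, 7.15 and 10.01 CPM in WT livers, a log2 fold change of 1.12 ± 0.15 (SE). Fcer1g (chromosome 1, 171229572 to 171234349) had 18.6, 19.3 and 17.2 CPM in R135W livers and 10.4, 9.31 and 8.46 CPM in WT livers, a log2 fold change of 0.96 ± 0.13 (SE). None of the 3 overlapped between genotypes, beside 23.7% of all liver genes whose groups do not overlap. Each had an adjusted p of 0.0108 in edgeR. The call of Fcer1g was lost when WT animal 8 was left out (adjusted p = 0.0506 in edgeR) and when WT animal 9 was left out (adjusted p = 0.0529). The ratio of Tyrobp to Fcer1g per kilobase was 1.25 ± 0.071 in R135W livers and 1.12 ± 0.24 in WT livers, and that of Syk to Fcer1g was 0.105 ± 0.0092 in R135W livers and 0.103 ± 0.019 in WT livers.

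In gastrocnemius these 3 genes were low. Syk had 2.62, 3.37 and 3.22 CPM in R135W muscles and 3.40, 3.54 and 3.76 CPM in WT muscles. All R135W values lay below all WT values, as the groups of 16.2% of all genes do not overlap in gastrocnemius. The log2 fold change of -0.23 ± 0.14 (SE) did not pass the test (adjusted p = 0.605 in edgeR). Tyrobp had 1.23, 1.55 and 1.11 CPM in R135W muscles and 1.20, 1.15 and 1.27 CPM in WT muscles. Fcer1g had 1.61, 2.72 and 1.45 CPM in R135W muscles, where animal 7 stood above the other two, and 1.87, 1.70 and 1.53 CPM in WT muscles.

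**Figure D2:**
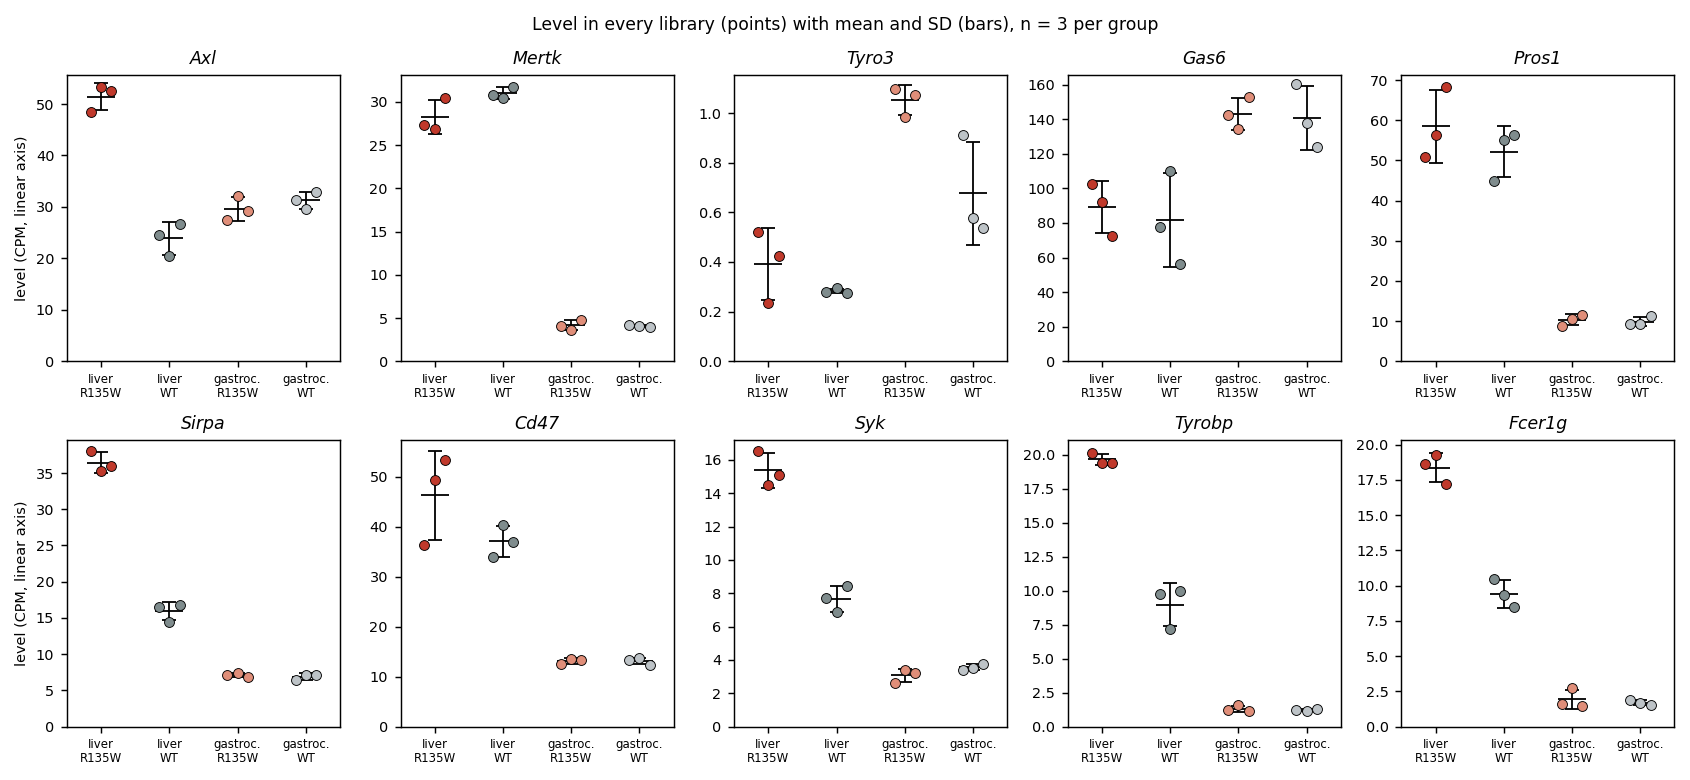
Points give the level of each gene (CPM, linear axis from 0) in every library, with bars for the mean and SD of the 3 animals of each group. In liver Axl, Sirpa, Syk, Tyrobp and Fcer1g separate the genotypes without overlap, while the gastrocnemius groups overlap except for Tyro3 and Syk. Over all tested genes, groups do not overlap for 23.7% in liver and 16.2% in gastrocnemius.

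Counted over the members in liver, 9 of the 10 passed the count filter and 5 passed an adjusted p of 0.05, all higher in R135W, beside 2.76% of all tested genes higher and 0.524% lower. The same 5 were those with groups that do not overlap, beside 23.7% of all genes. The median log2 fold change of the 9 was 0.96, against -0.01 over all genes tested. In gastrocnemius none of the 10 passed in edgeR, beside 0.875% of all genes, with 1 (Tyro3) at an unadjusted p under 0.05. DESeq2 and limma-voom also called none there, and the unadjusted p of Tyro3 was 0.139 in DESeq2 and 0.0318 in limma-voom. The median there was 0.03.

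**Figure D3:**
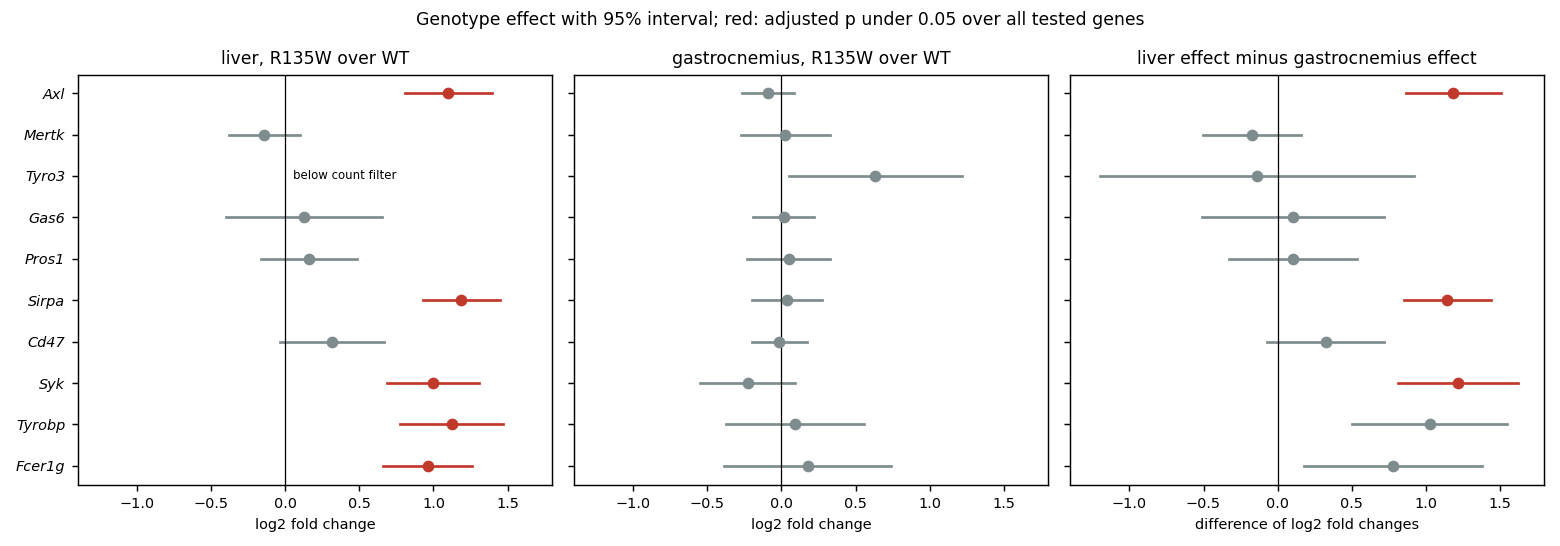
Points give the log2 fold change of R135W over WT in liver (left) and gastrocnemius (centre) and the difference of both effects (right), with 95% intervals and red where the adjusted p over all genes is under 0.05. The 5 called liver effects lie between 0.96 and 1.19, none is called in gastrocnemius, and Axl, Sirpa and Syk are called for the difference.

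The genotype effect itself was compared between the tissues in the fit of all 12 libraries, as the liver effect minus the gastrocnemius effect. It differed for Axl by 1.19 ± 0.15 on the log2 scale (SE, adjusted p = 0.00703 in edgeR), for Sirpa by 1.15 ± 0.14 (adjusted p = 0.00503) and for Syk by 1.22 ± 0.19 (adjusted p = 0.0274). These 3 were called beside 0.0973% of all 15414 genes called higher for this difference, and 20 genes were called in either direction. With each animal as a replicate block, 2 of the 3 remained called and Syk had an adjusted p of 0.0846. Tyrobp differed by 1.03 ± 0.24 (adjusted p = 0.149) and Fcer1g by 0.78 ± 0.28 (adjusted p = 0.366), which did not pass, and Mertk by -0.17 ± 0.15. Leaving out an animal left 2 members called without animal 7, 1 without animal 6 or 8, and 0 without animal 5, 12 or 9, in fits where 1 to 7 genes in all were called.

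Between the tissues of the WT mice, liver over gastrocnemius, all 10 members differed, as did 82.1% of all genes. Mertk (log2 fold change 2.93 ± 0.11, SE), Tyrobp (2.89 ± 0.17), Fcer1g (2.47 ± 0.20) and Pros1 (2.401 ± 0.15) were the members furthest above gastrocnemius in liver, followed by Cd47 (1.497 ± 0.13), Sirpa (1.21 ± 0.10) and Syk (1.10 ± 0.13). Tyro3 (-1.23 ± 0.35), Gas6 (-0.79 ± 0.20) and Axl (-0.39 ± 0.10) were lower in liver than in gastrocnemius. Axl was thus below its muscle level in WT liver at 23.9 ± 3.18 CPM against 31.3 ± 1.66 CPM in WT gastrocnemius (SD, n = 3 each). In the R135W livers Axl averaged 51.4 ± 2.61 CPM and in the R135W muscles 29.6 ± 2.39 CPM.

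Ordered per kilobase of exon, the R135W livers had Tyrobp (34.8 ± 0.75 CPM per kb) and Gas6 (34.4 ± 5.87) at the top, then Fcer1g (27.9 ± 1.603), Cd47 (24.2 ± 4.66) and Pros1 (17.9 ± 2.76), then Axl (10.1 ± 0.51), Sirpa (8.54 ± 0.33), Mertk (7.95 ± 0.55) and Syk (2.92 ± 0.20), with Tyro3 last at 0.0816 ± 0.030. From Tyrobp down to Pros1, neighbours in this order overlap in the range of their libraries, as do Sirpa and Mertk, so their order is not settled. In WT livers the order was Gas6 (31.4 ± 10.5 CPM per kb), Cd47 (19.4 ± 1.66), Pros1 (15.9 ± 1.93), Tyrobp (15.9 ± 2.81), Fcer1g (14.3 ± 1.504), Mertk (8.72 ± 0.19), Axl (4.70 ± 0.63), Sirpa (3.73 ± 0.29), Syk (1.45 ± 0.15) and Tyro3 (0.0588 ± 0.0019). Pros1, Tyrobp and Fcer1g do not differ there beyond their spread. Both muscle groups were led by Gas6, at 55.2 ± 3.57 CPM per kb in R135W muscles and 54.2 ± 7.18 CPM per kb in WT muscles, and had Tyro3 last.

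Markers of macrophages, which are among the cells known to express Tyrobp, Fcer1g, Syk and Sirpa, moved in the same livers. Of 18 macrophage markers 14 were higher in R135W liver and none lower, and their sum was 1261 to 1319 CPM in R135W livers and 489.7 to 721.4 CPM in WT livers, with no marker at 0. Emr1 (F4/80) had a log2 fold change of 1.53 ± 0.17 (SE), Cd68 of 1.21 ± 0.15 and Csf1r of 0.96 ± 0.17 in liver. In gastrocnemius none of the 12 tested macrophage markers was called, and the 18 summed to 81.8 to 105.9 CPM in R135W muscles and 76.62 to 96.89 CPM in WT muscles. Some other immune markers also stood higher in the same livers. Of 7 tested monocyte markers 4 were called higher in R135W liver, as was 1 of 5 NK cell markers, beside 2.76% of all tested genes. Of the 7 monocyte markers 6 had a positive log2 fold change, and the median was 1.04. The 8 monocyte markers summed to 1380 to 1443 CPM in R135W livers and 1282 to 1758 CPM in WT livers, which overlap. Such a sum follows its most abundant markers, so the overlap does not speak for the list. Of 10 fibroblast and stellate cell markers 1 was called higher, but only 4 had a positive log2 fold change and the median was -0.05. No tested neutrophil, T cell or B cell marker was called in edgeR. Of them 3 of 4, 4 of 7 and 4 of 5 had an unadjusted p under 0.05, beside 17.6% of all liver genes. The summed levels of the neutrophil, T cell and B cell markers did not overlap between genotypes, beside 23.7% of single genes that do not. Neutrophil markers summed to 10.2 to 15.2 CPM in R135W livers and 5.13 to 8.03 CPM in WT livers. T cell markers summed to 7.83 to 8.22 CPM in R135W livers and 4.80 to 5.66 CPM in WT livers. B cell markers summed to 11.2 to 15.9 CPM in R135W livers and 6.32 to 9.18 CPM in WT livers. The part of these cells in the members' differences was not tested.

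Set against the mean log2 level of Emr1, Cd68 and Csf1r in the same library, a value added after the data were seen, the members spread widely. That reference was higher in R135W livers by 1.25 on the log2 scale. The same shift enters the value of every gene, so a gene with no genotype difference lands near -1.25. The relative values therefore restate the fold changes above and are a description, not further support. Relative to it, Sirpa (R135W minus WT -0.06), Tyrobp (-0.11), Axl (-0.14), Syk (-0.25) and Fcer1g (-0.29) differed by at most 0.29 on the log2 scale, and Cd47 (-0.95), Gas6 (-1.09), Pros1 (-1.09) and Mertk (-1.39) by 0.95 or more. With all 18 markers as the reference, Axl (0.06), Sirpa (0.14) and Tyrobp (0.09) had the opposite sign, so the sign of these small values depends on the reference. Mertk relative to the 3 markers was -0.41 ± 0.066 in R135W livers and 0.99 ± 0.25 in WT livers (SD, n = 3 each). In R135W livers 6 of the 9 tested members lay wholly below WT on this relative scale, beside 89.8% of all genes, so this count is not a result about the members.

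**Figure D4:**
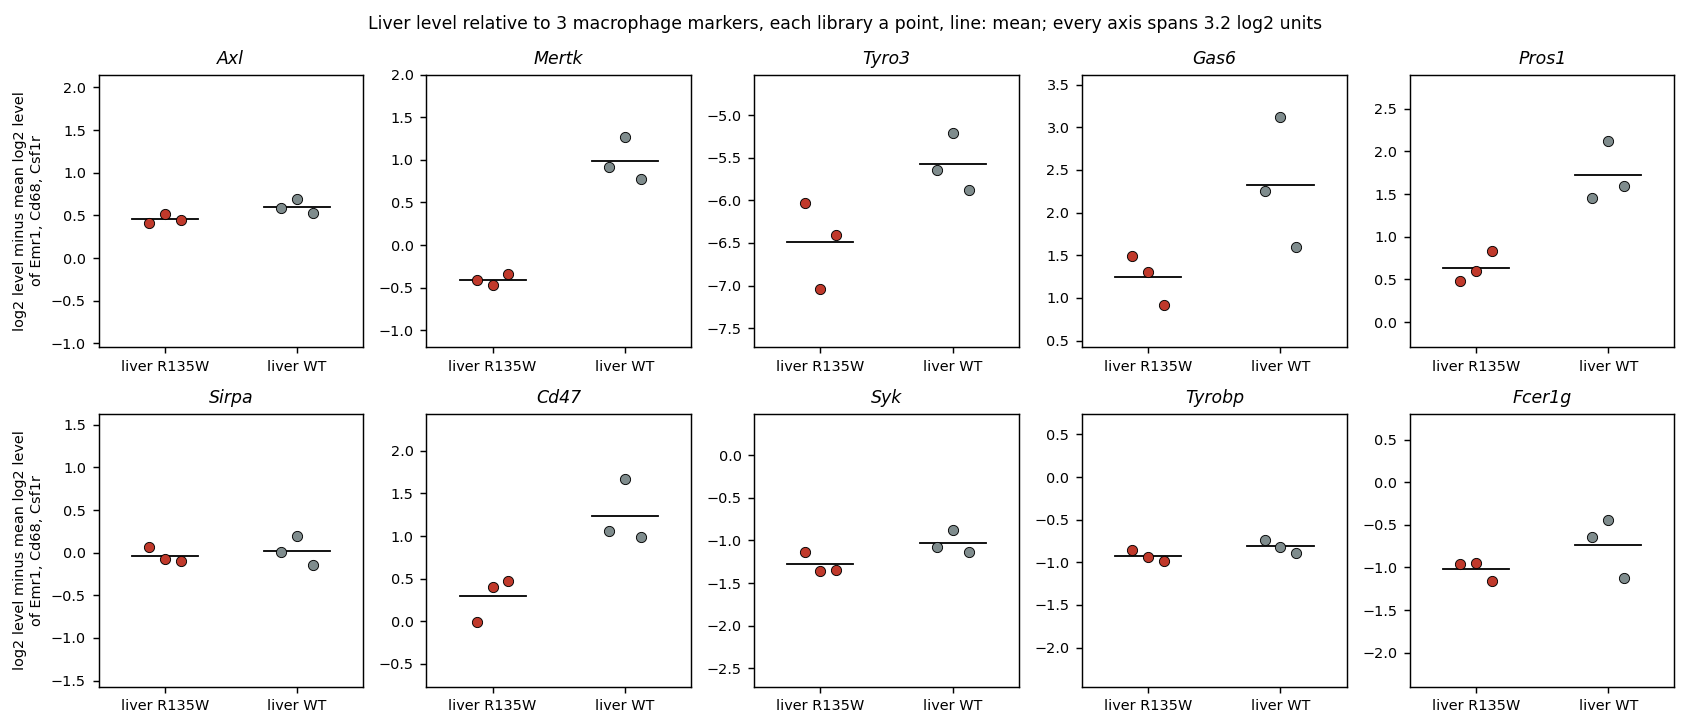
Points give the liver log2 level of each gene minus the mean log2 level of Emr1, Cd68 and Csf1r in the same library, for R135W (left in each panel) and WT (right), with the mean as a line. Axl, Sirpa, Syk, Tyrobp and Fcer1g differ by at most 0.29 between the genotype means, and Mertk by -1.39. These values restate the fold changes against 1 shift of the reference shared by all genes.

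The counts of the surrounding pathways in liver stand beside 2.76% of all tested genes called higher and 0.524% called lower. Inhibitory receptors and their phosphatases had 11 of 22 tested genes higher in R135W liver and none lower, with a median log2 fold change of 0.75. Clec12a, an inhibitory lectin (1.35 ± 0.15, SE), and Lilrb4, an inhibitory immunoglobulin-like receptor (1.01 ± 0.16), had the smallest p among them. The list of Fc receptors and receptors that pair with Tyrobp or Fcer1g had 7 of 17 higher, with a median of 0.94. The smallest p in it were those of Clec7a and of Fcgr1, the high-affinity IgG receptor (1.37 ± 0.20). Clec7a, the beta-glucan receptor Dectin-1, had 10.6 ± 0.45 CPM in R135W livers and 3.35 ± 0.049 CPM in WT livers (log2 fold change 1.65 ± 0.14). Clec7a was counted in this list, although it is not established as either kind of receptor. The SYK pathway and Src family kinases had 7 of 29 higher, with a median of 0.55, including the phospholipase Plcg2 (1.35 ± 0.18). The phagocyte NADPH oxidase had 4 of 6 higher, with Cybb, its catalytic subunit, at 1.19 ± 0.15 and the small GTPase Rac2 at 1.12 ± 0.14.

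Efferocytosis receptors and bridging proteins had 6 of 24 higher in R135W liver: C1qa, C1qb and C1qc, whose products opsonise dying cells, Timd4, a phosphatidylserine receptor of resident macrophages, and the lipid-binding receptors Cd300a and Cd300lf. C1qb had a log2 fold change of 1.12 ± 0.17 (SE) and C1qc of 1.09 ± 0.18, and the 3 complement genes and Timd4 also stand in the macrophage list, Cd300a also among the inhibitory receptors and Rac2 also in the engulfment list. The engulfment machinery had 3 of 22 higher (Rac2, Coro1a and Dock2, the last at 1.12 ± 0.17) and 1 lower, Rab5a. CD47 and SIRPA partners had 1 of 14 higher, the adaptor Fyb (0.94 ± 0.16), and 1 lower, the mitophagy receptor Bnip3 (-0.76 ± 0.15). TAM shedding, feedback and carboxylation genes had 1 of 16 higher, beside the 2.76% of all genes. The 10 tested vitamin K dependent plasma proteins had none in edgeR, with 1 at an unadjusted p under 0.05, beside 17.6% of all liver genes. In gastrocnemius these lists held no gene higher and 3 lower, beside 0.333% of all genes lower: the late endosome GTPase Rab7 (-0.33 ± 0.06), Bnip3 (-0.31 ± 0.06) and the PI3-kinase subunit Pik3r1 (-0.81 ± 0.13). No gene of any of these lists was called for the difference between tissues, beside 0.13% of all 15414 genes, so this is not a result about the lists.

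**Figure D5:**
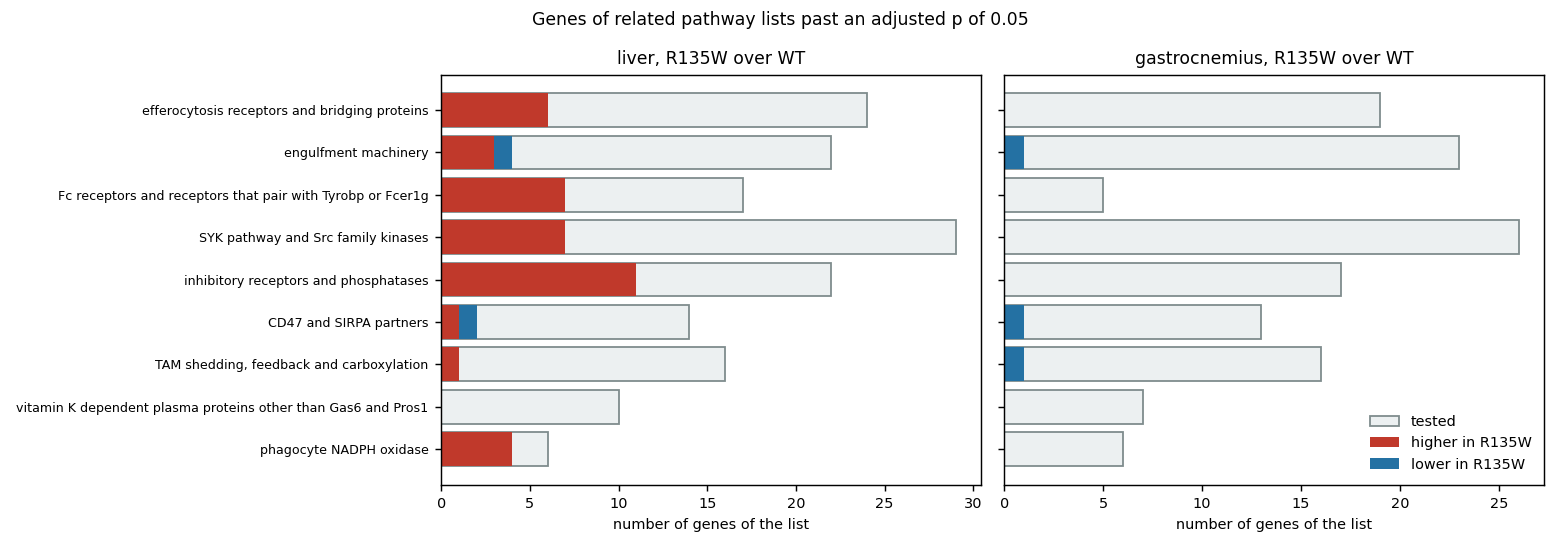
Bars give the number of genes of each pathway list that were tested (grey) and called higher (red) or lower (blue) in R135W over WT, in liver (left) and gastrocnemius (right). In liver 11 of 22 inhibitory receptors and phosphatases were higher, beside 2.76% of all tested genes. In gastrocnemius the lists held 3 lower genes and none higher.

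The genes nearest to each member in pattern were found by the root mean square difference of log2 CPM, each gene centred on its own mean, over the 12 libraries. Sirpa and Syk were each other's nearest gene among 13502 candidates, at 0.15 log2 units. Tyrobp was nearest to C1qc (0.13) and C1qa (0.14). Fcer1g was nearest to Unc93b1 (0.21) and Nckap1l (0.21), Axl to Smo (0.17) and Me2 (0.17), Mertk to Mpdu1 (0.10) and Tmem183a (0.11), Pros1 to Serinc5 (0.11) and Magi3 (0.14), and Cd47 to Degs1 (0.11) and Hn1l (0.12). Gas6 was nearest to Gm527 (0.14) and Tamm41 (0.15), and Tyro3 to Trp53rk (0.23) and Bcl6b (0.27). Differences of tissue and of genotype both enter this measure.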

How the data were processed

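Poly(A) RNA of liver and gastrocnemius from 6 mice was sequenced in 12 libraries. The deposited values are raw counts per gene, made with featureCounts 1.5.2 on exons of an mm10 annotation, in pairs, without strand and with reads allowed to count for overlapping genes, per the file headers; alignment used STAR 2.4.0, per the submitters' processing notes. Counts were tested in R 4.3.3 with edgeR 4.0.16 (quasi-likelihood F test, TMM scaling, default expression filter by group, p-values adjusted by Benjamini and Hochberg's method across every gene tested, called under 0.05), within each tissue for genotype and over all 12 libraries for the difference between tissues and for the WT tissues. DESeq2 1.42.0 and limma-voom (limma 3.58.1), other scaling and filters, age, left-out animals and a replicate block were alternatives. The methods were tested on simulated data. SE is that of the log2 fold change, and CPM use TMM-scaled totals, per kilobase for comparisons between genes.

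The members, lists and tests were chosen with earlier results of these data known. The genes named are all members, up to 2 called genes of each list in each tissue with the smallest p, and for each member the 2 genes of the nearest pattern. Cd300a, Cd300lf, C1qa, Timd4, Coro1a and Rab5a were named after their values were seen. Some genes that this rule names are not reported here. Title numbers give the animal, so liver and gastrocnemius libraries of 1 animal are paired. Their deviations from the group means correlated at 0.0002 to 0.0622. No 2 libraries of a group agreed within sampling noise. Within a tissue the genotypes share no animal.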

Additional observations from a re-analysis of the deposited data

Results flagged for a closer look

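The effect of R135W in liver minus that in gastrocnemius was past the threshold for 3 members: Axl (1.19 on the log2 scale), Sirpa (1.15) and Syk (1.22). A test of the difference itself drew attention to each. All 3 were higher in R135W livers than in WT livers without overlap, beside 23.7% of all liver genes whose groups do not overlap. None of the 3 was called between R135W and WT muscles. The macrophage markers Emr1, Cd68 and Csf1r moved with them. Their log2 fold changes were 1.53, 1.21 and 0.96 in liver and 0.14, 0.34 and -0.00 in gastrocnemius. In the edgeR test of the difference itself, none of the 18 macrophage markers was called, beside 0.13% of all genes. Of these markers 12 had an unadjusted p under 0.05 there, beside 9.95% of all genes, and their median difference was 0.99. The part of macrophages in the result was not tested.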

How the results depend on the processing

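In liver 5 members were called under other size factors, DESeq2, limma-voom, no filter, the stricter filter, age as a covariate and the fit of all 12 libraries, and 4 to 5 with a library left out. In gastrocnemius 0 were called under every alternative run. For the difference between tissues the 3 members became 4 in DESeq2 (Tyrobp, adjusted p = 0.0494), 2 in limma-voom (Syk, 0.0595), 2 with animal as a replicate block and 0 to 2 with an animal left out. The block left all 10 members called between WT tissues. Leaving out an animal there left 9 to 10, and Tyro3 lost its call without animal 6 (adjusted p = 0.0583 in edgeR). Over all genes, DESeq2 called 781 genes in liver, 274 in gastrocnemius and 184 for the difference, against 457, 121 and 20 in edgeR, limma-voom called 7 for the difference, and the fit of all 12 libraries called 1057 in liver and 20 in gastrocnemius. Age as a covariate called 274 in liver, and leaving out a library called 84 to 285 in liver and 3 to 106 in gastrocnemius. The cause was not tested.

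No called member changed direction. With a library or animal left out, uncalled log2 fold changes crossed 0: in liver Gas6 (-0.082 to 0.40); in gastrocnemius Cd47 (-0.053 to 0.016), Fcer1g (-0.16 to 0.36), Tyrobp (-0.064 to 0.21), Pros1 (-0.022 to 0.15), Mertk (-0.070 to 0.11), Sirpa (-0.021 to 0.072) and Gas6 (-0.066 to 0.12); for the difference Gas6 (-0.035 to 0.39) and Tyro3 (-0.42 to 0.026). Without length, 7 of 10 members changed rank by level in each group. Counts of 5 to 28 per library limit Tyro3.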
